A study of Mus musculus with 49 samples.

Results

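F-box proteins are the substrate receptors of SCF ubiquitin ligases, and the expression of 54 of their genes was followed in mouse hippocampus that lacked endophilin A genes. The members were all genes named Fbxl, Fbxo or Fbxw followed by digits, with Fbxo32 left out, that averaged at least 1 CPM in at least 1 of 6 groups. CPM are read counts per M (mega) reads on genes, taken without further scaling for this minimum and scaled by TMM in all other values. The names matched 58 of the 38355 genes counted, and 54 of them reached the minimum: 15 Fbxl, 31 Fbxo and 8 Fbxw genes. Just inside it lay Fbxo48 and Fbxo47, whose highest group means were 1.30 and 1.35 CPM. Just outside it lay Fbxw10 (0.822 CPM), Fbxl8 (0.786 CPM), Fbxl13 (0.739 CPM) and Fbxl22 (0.728 CPM). The minimum is a level and not a difference, but Fbxo47 reached it through KOWT and WT-DKO alone, and all 54 members passed the filter on low counts in every comparison.

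Polyadenylated RNA of hippocampus was sequenced from 49 mouse samples. At an age labelled postnatal day 13 to 21 there were 7 double knockouts of endophilin A1 and A2 (DKO), 7 littermate controls (KOWT) and 10 separate wild types (WT-DKO). At an age labelled postnatal day 0 there were 9 triple knockouts of endophilin A1, A2 and A3 (TKO), 8 littermate controls (KOWTKO) and 8 separate wild types (WT-TKO). No sample was treated. The labels do not give the genotype of the littermates any further, nor a strain, and a second label puts newborn mice in all groups, which conflicts with the age of the older groups. Ages are taken here from the age label. The labels do not tell whether each sample is an animal of its own, and p-values therefore rest on a spread between samples that may be technical.

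An F-box protein holds its substrate and binds Skp1 with its F-box, and Skp1 joins it to the cullin Cul1 and the RING protein Rbx1, which carries the ubiquitin-loaded enzyme. Fbxw proteins recognize substrates with WD40 repeats and Fbxl proteins with leucine-rich repeats, and Fbxo proteins have other domains. In neurons, F-box proteins set the amount of synaptic proteins, clear misfolded glycoproteins and control cell cycle exit.

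Libraries held 13.1 M to 57.0 M reads on genes, with a median of 22.5 M, and the members took 0.324% to 0.392% of them. Sh3gl1, which encodes endophilin A2, was at 0.352 to 1.32 CPM in DKO and TKO libraries. Sh3gl2, which encodes endophilin A1, was at 37.7 to 43.3 CPM in DKO and 38.0 to 41.6 CPM in KOWT, against 390.0 to 464 CPM in WT-DKO. At day 0 it was at 10.9 to 27.7 CPM in TKO and 10.5 to 26.0 CPM in KOWTKO, against 158 to 227 CPM in WT-TKO. The libraries labelled littermates were therefore low in Sh3gl2 as the mutants were, and those of KOWTKO also in Sh3gl3, which encodes endophilin A3 (0.044 to 0.483 CPM in TKO and KOWTKO, against 53.6 to 63.4 CPM in WT-TKO). Some libraries stood apart. Sh3gl3 was under 20 CPM in DKO replicates 5 and 6 and KOWT replicates 4, 5 and 6. Choroid plexus markers were high in DKO replicates 1, 2, 5 and 7, KOWT replicates 5 and 7, WT-DKO replicates 1 and 9 and WT-TKO replicate 7. In WT-TKO replicate 8, 12 myelin markers averaged 5.398 on the log2 scale, against 1.55 to 1.92 in the other WT-TKO libraries. In KOWTKO replicate 3, Sh3gl1 was at 33.7 CPM, against 64.5 to 83.3 CPM in the other KOWTKO libraries. In KOWTKO replicate 7, reads on no feature were 15.1%, against 8.89% to 11.6% in the other KOWTKO libraries.

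Promoter sequences of 43 of the 54 members were found, 62 in all, each of 250 bases before and 50 after an annotated start (RefSeq, GRCm38.p6). The 3 shown belong to Fbxl4 and Fbxl20, whose rise in TKO against littermates held under every setting tried, and to Fbxw9, whose fall with age was among the largest. They lie at chr4:22357293-22357592 on the plus strand, chr11:98149567-98149866 on the minus strand and chr8:85059869-85060168 on the plus strand. Capitals mark the cyclic AMP response element TGACGTCA.
Fbxl4: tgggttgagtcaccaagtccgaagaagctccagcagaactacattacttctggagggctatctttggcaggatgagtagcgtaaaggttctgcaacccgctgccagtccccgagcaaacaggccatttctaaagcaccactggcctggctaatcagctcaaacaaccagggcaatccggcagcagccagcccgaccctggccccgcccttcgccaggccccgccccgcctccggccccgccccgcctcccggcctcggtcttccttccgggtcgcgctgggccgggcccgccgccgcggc
Fbxl20: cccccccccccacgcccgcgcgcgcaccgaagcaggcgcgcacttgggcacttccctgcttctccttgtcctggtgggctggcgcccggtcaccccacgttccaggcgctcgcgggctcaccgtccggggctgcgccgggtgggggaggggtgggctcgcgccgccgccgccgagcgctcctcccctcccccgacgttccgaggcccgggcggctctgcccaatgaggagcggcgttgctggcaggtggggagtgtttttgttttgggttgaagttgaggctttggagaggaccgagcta
Fbxw9: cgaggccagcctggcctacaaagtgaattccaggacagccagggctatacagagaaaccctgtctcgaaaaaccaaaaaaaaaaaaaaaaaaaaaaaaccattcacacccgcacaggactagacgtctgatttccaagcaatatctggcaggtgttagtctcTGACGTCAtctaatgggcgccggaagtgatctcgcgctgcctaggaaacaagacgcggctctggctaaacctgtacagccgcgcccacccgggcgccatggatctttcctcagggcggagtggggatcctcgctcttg
Member promoters had a median of 20 CpG and 60.8% GC over the 62 member promoters, against 7 CpG and 52.7% GC over all 32851 promoters. All promoters, of 27025 genes, were taken without a filter on expression, while members had to reach 1 CPM. The sets are therefore not matched, and their contrast is not read as a trait of F-box genes. The cyclic AMP response element was found in 1 member promoter, that of Fbxw9, and in 1.79% of all promoters. The E-box CACGTG, which shares the letters ACGT with it, was found in 4 member promoters, of Fbxl2, Fbxo7 and Fbxo10, and in 7.15% of all promoters. The forkhead motif TGTTTAC was found in none of the 62 and in 3.65% of all promoters. Both strands were searched, and a match is a description of these letters only.

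The members spanned a wide range of levels in every group. Per kb of annotated exon, means ran from 0.221 to 199 CPM in DKO, 0.203 to 189 CPM in KOWT and 0.204 to 198 CPM in WT-DKO. At day 0 they ran from 0.254 to 63.9 CPM for TKO, 0.277 to 63.5 CPM for KOWTKO and 0.294 to 54.4 CPM in WT-TKO. Fbxl16, whose protein is reported to bind the phosphatase PP2A, led the older groups with 198 CPM per kb in WT-DKO. Fbxw11 (beta-TrCP2, a receptor of phosphorylated beta-catenin and IkappaB) followed with 50.6 CPM per kb, then Fbxo2, a receptor of N-glycans of misfolded glycoproteins, with 43.5 CPM per kb. In WT-TKO the order was Fbxo21 (54.4 CPM per kb), Fbxw11 (49.1 CPM per kb), Fbxo11, a receptor of the repressor BCL6 (47.0 CPM per kb), and Fbxl16 (42.1 CPM per kb). Fbxw11 and Fbxo11, neighbours in this order, did not differ beyond their spread: at nearly equal exon lengths, Fbxo11 ranged in WT-TKO libraries from 194 to 219 CPM and Fbxw11 from 199 to 237 CPM. At the low end, Fbxl7, Fbxo48, Fbxo17, Fbxo47 and Fbxl21 stayed under 1 CPM per kb in every group. The median coefficient of variation of the members over libraries was 11.5% in DKO, 9.31% in KOWT, 7.91% in WT-DKO, 10.4% for TKO, 10.5% for KOWTKO and 9.75% for WT-TKO.

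DKO were first set against KOWT, which compares loss of Sh3gl1 with its presence in libraries low in Sh3gl2. Of 54 members, 7 were higher and 7 lower in DKO (edgeR quasi-likelihood test, Benjamini-Hochberg adjusted p under 0.05 over all genes), or 25.9% of them. Over all 16114 genes tested, 20.8% were called, 10.2% higher and 10.6% lower. The members' median log2 fold change was -0.02, against 0.00 over all genes, and the calls were split evenly by direction. The median absolute log2 fold change was 0.122 for the members, against 0.143 over all genes. Of the 14 changes called, 2 were over 1.5-fold, those of Fbxo47 and Fbxo17.

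**Figure D1:**
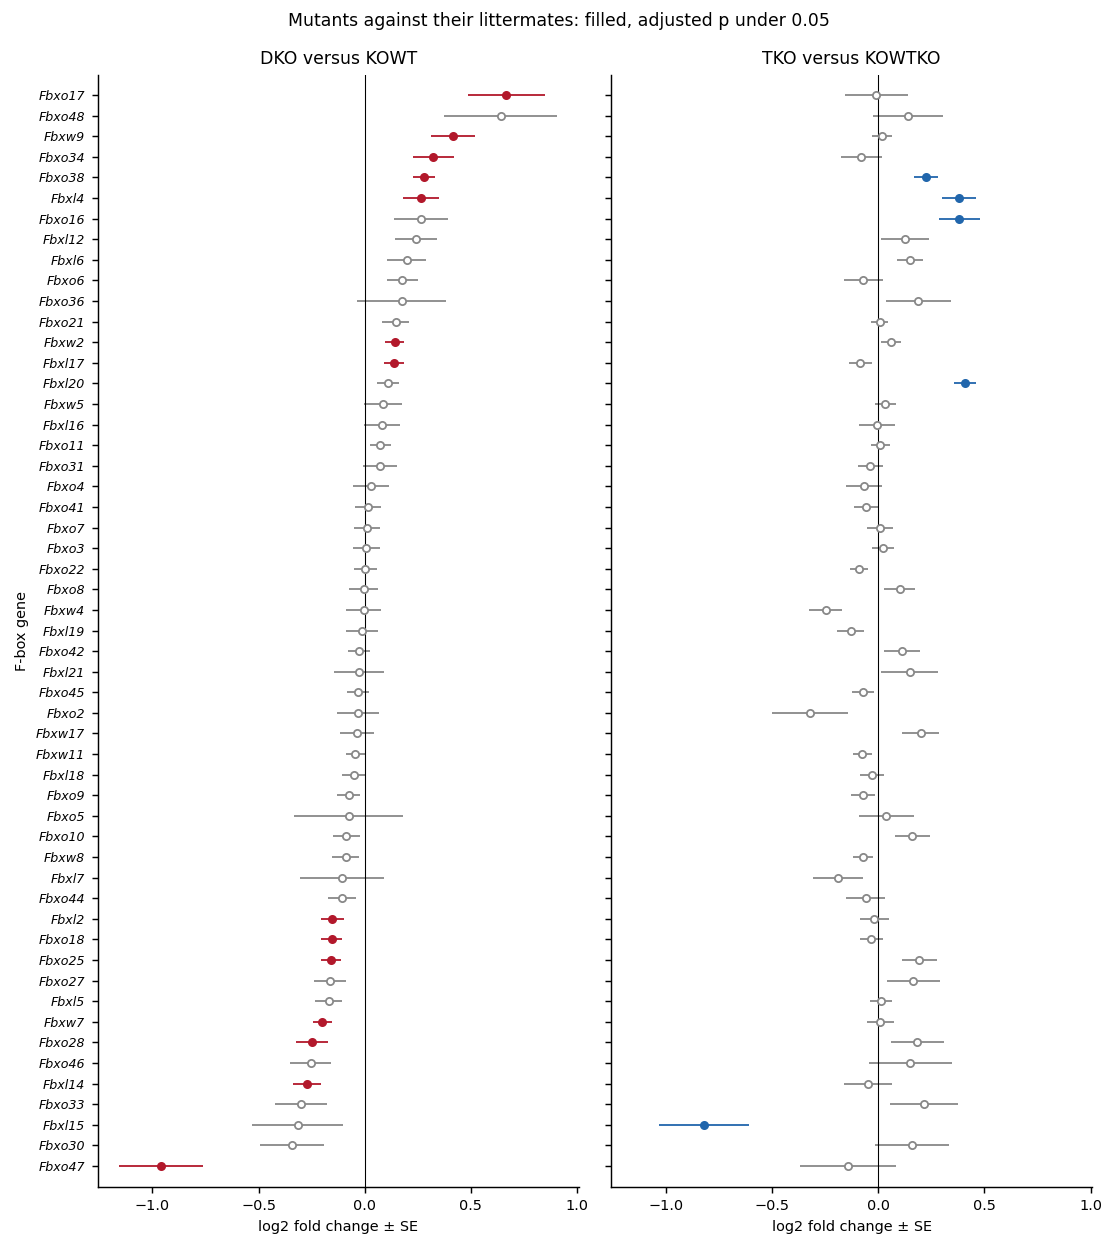
Log2 fold changes of 53 of the 54 F-box genes in DKO versus KOWT (left) and TKO versus KOWTKO (right), with SE, in the order of the left panel. Filled points passed an adjusted p of 0.05: 14 genes on the left, from Fbxo47 at -0.96 to Fbxo17 at 0.67, and 5 on the right, from Fbxl15 at -0.82 to Fbxl20 at 0.41.

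Fbxo47, needed for meiosis in mouse spermatocytes, fell in DKO against both older control groups. It met the 1 CPM minimum through those control groups alone, so its place among the members depended on being high there. Its lowest, median and highest values were 0.370, 0.575 and 1.03 CPM in DKO, against 0.976, 1.33 and 1.69 CPM in KOWT and 1.02, 1.46 and 1.66 CPM in WT-DKO. Of the 7 DKO libraries, 6 lay below all KOWT libraries and all WT-DKO libraries. The log2 fold change was -0.96 ± 0.20 (SE) against KOWT (adjusted p = 0.00124) and -1.03 ± 0.18 against WT-DKO (adjusted p = 0.000191). The gene is near the detection limit, with 8 to 31 reads per DKO library, 20 to 47 per KOWT library and 15 to 83 per WT-DKO library. In newborns it averaged 0.560 ± 0.127 CPM in the 9 TKO libraries, 0.610 ± 0.291 CPM in the 8 KOWTKO libraries and 0.648 ± 0.106 CPM in the 8 WT-TKO libraries (SD). The newborn groups overlapped, though 3 of 9 TKO libraries lay below all WT-TKO libraries, and neither comparison of TKO called the gene.

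Fbxo38, a receptor of the T-cell checkpoint PD-1 and a gene of inherited motor neuropathy in humans, rose in both mutants. It had 67.3, 86.0 and 91.9 CPM (lowest, median and highest) in DKO, against 65.3, 67.6 and 72.6 CPM in KOWT and 55.1, 60.7 and 65.5 CPM in WT-DKO. Of the DKO libraries, 6 of 7 were above all KOWT libraries and 7 of 7 above all WT-DKO libraries. The log2 fold change was 0.28 ± 0.05 against KOWT (adjusted p = 0.000658) and 0.45 ± 0.05 against WT-DKO (adjusted p = 3.17e-07). It was also the 1 member called between the older control groups, higher in KOWT than in WT-DKO by 0.17 ± 0.05 (adjusted p = 0.0475). In newborns it had 53.8, 59.4 and 67.2 CPM in TKO, against 49.04, 50.4 and 53.8 CPM in KOWTKO and 44.0, 55.3 and 58.5 CPM in WT-TKO. Against KOWTKO it rose by 0.22 ± 0.06 (adjusted p = 0.0221), with 8 of 9 TKO libraries above all KOWTKO libraries, while the TKO and WT-TKO ranges overlapped and the gene was not called.

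Fbxl4, a mitochondrial protein that restrains mitophagy, was the other of 2 members called in the same direction in both mutants against littermates. These comparisons share no library. The share of all genes called alike in both was not computed, so the overlap is not read as a result about the members. Fbxl4 had 17.9, 22.9 and 28.7 CPM in DKO, against 17.1, 18.3 and 19.8 CPM in KOWT, and 6 of 7 DKO libraries were above all KOWT libraries. In newborns it had 11.8, 14.7 and 16.8 CPM in TKO, against 9.85, 10.8 and 14.01 CPM in KOWTKO, and all 9 TKO libraries were above the KOWTKO median. It rose by 0.26 ± 0.08 in DKO (adjusted p = 0.0236) and by 0.38 ± 0.08 in TKO (adjusted p = 0.00711). WT-DKO libraries, at 17.0, 20.03 and 22.1 CPM, overlapped both DKO and KOWT, and WT-TKO libraries, at 11.9, 13.6 and 14.8 CPM, lay within the TKO range. The gene was not called in DKO or TKO against them. It was lower in KOWTKO than in WT-TKO by 0.30 on the log2 scale (-0.30 ± 0.08, adjusted p = 0.011). In DKO against KOWT the call ended without DKO replicate 7 (0.19, adjusted p = 0.0563) or KOWT replicate 6 (0.24, adjusted p = 0.0512).

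**Figure D2:**
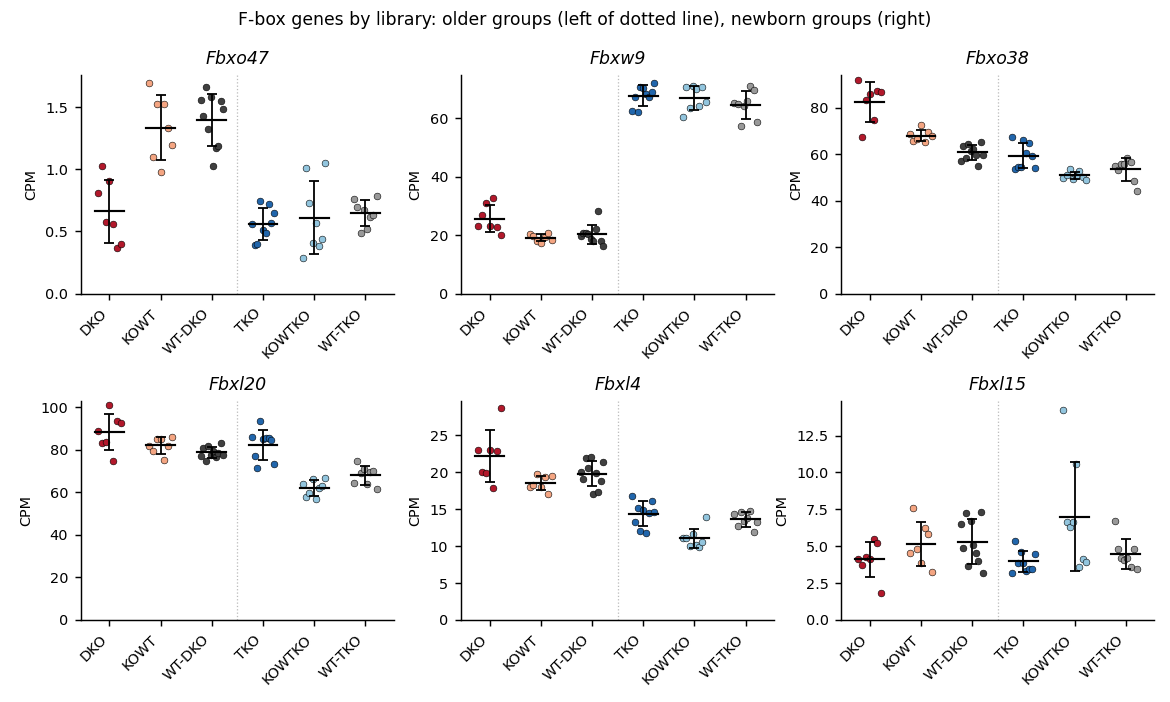
CPM of Fbxo47, Fbxw9, Fbxo38, Fbxl20, Fbxl4 and Fbxl15 in each library, with the mean and SD of each group and the older groups left of the dotted line. Fbxo47 in DKO lay between 0.370 and 1.03 CPM against 0.976 to 1.69 CPM in KOWT, and Fbxl20 in TKO lay between 71.4 and 93.6 CPM, above all KOWTKO libraries.

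Fbxw7, Fbxo18 and Fbxl14 were also lower in DKO than in KOWT. Fbxw7, which receives cyclin E, Myc, Jun and Notch for degradation, had 165, 177 and 192 CPM in DKO, against 197, 203 and 216 CPM in KOWT, with no overlap. It fell by 0.20 on the log2 scale (-0.20 ± 0.04, adjusted p = 0.00215) against KOWT. Fbxo18, the DNA helicase Fbh1, had 68.1, 85.5 and 87.3 CPM in DKO, against 88.5, 92.6 and 95.7 CPM in KOWT, also with no overlap (-0.16 ± 0.05, adjusted p = 0.0293). Fbxl14, a receptor of the transcription factor Snail, had 17.8, 19.2 and 20.6 CPM in DKO, against 18.7, 23.1 and 25.8 CPM in KOWT (-0.27 ± 0.07, adjusted p = 0.00589). All 7 DKO libraries were below the KOWT median of each of these genes. Fbxo28 (-0.25 ± 0.07), Fbxo25, a relative of Fbxo32 (-0.16 ± 0.05), and Fbxl2, a prenylated and membrane-bound receptor (-0.15 ± 0.05), fell as well, with adjusted p-values of 0.0187, 0.0188 and 0.0459.

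Among the members higher in DKO, Fbxo17 belongs to the sugar-binding relatives of Fbxo2. It had 1.02, 1.61 and 2.01 CPM in DKO, against 0.714, 0.977 and 1.07 CPM in KOWT (0.67 ± 0.18, adjusted p = 0.00992). Fbxw9 had 19.9, 23.3 and 32.6 CPM in DKO, against 17.4, 19.4 and 20.7 CPM in KOWT (0.41 ± 0.10, adjusted p = 0.00595). For each, 6 of 7 DKO libraries were above all KOWT libraries. Annotated exons of Fbxw9 overlap those of A230103J11Rik on the opposite strand over 6.4% of their length, where reads cannot be told apart. Fbxo34 rose by 0.32 ± 0.10 (adjusted p = 0.0181), Fbxl17, which removes mispaired BTB-domain proteins, by 0.14 ± 0.05 (adjusted p = 0.0374), and Fbxw2 by 0.14 ± 0.05 (adjusted p = 0.0307).

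Several of these calls rested on few libraries, and without DKO replicate 6 a total of 9 members were called. Once the 5 Sh3gl3-low libraries were left out, 3 of the 14 calls remained, those of Fbxo47 (-0.86), Fbxo38 (0.31) and Fbxo17 (0.79), and without the choroid-rich libraries 7 of the 14 remained, among them Fbxo47 and Fbxo38 but neither Fbxo17 nor Fbxw7. With DKO and KOWT alone in the fit, 6 of the 14 remained, and the calls of Fbxl17, Fbxl2, Fbxl4, Fbxo18, Fbxo25, Fbxo28, Fbxo34 and Fbxw2 ended. The share of all genes called in these refits is not given here, so the losses are not read as particular to the members. Fbxl17 was lost without DKO replicate 5, 6 or 7 or KOWT replicate 2, 5, 6 or 7 (0.10 to 0.14), and Fbxl2 without any of 10 of the 14 libraries, DKO replicates 1, 4, 6 and 7 and KOWT replicates 1, 2, 3, 4, 6 and 7 (-0.16 to -0.13). Fbxw2 was lost without DKO replicate 5, 6 or 7 or KOWT replicate 1 or 4 (0.12 to 0.13), and Fbxo18 without DKO replicate 1 or 5 or KOWT replicate 2 or 5 (-0.15 to -0.11). Fbxo25 was lost without DKO replicate 6 (-0.12), and Fbxo34 without DKO replicate 1 or 6 (0.27 for each). Markers moved with these groups: 4 of 12 oligodendrocyte and myelin markers fell in DKO against KOWT, and their summed level ran from 4611 to 14660 CPM in DKO, against 11060 to 21430 CPM in KOWT. On the log2 scale the myelin mean was 6.951 in DKO replicate 5 and 7.346 in DKO replicate 6, which were also low in Sh3gl3. In the other DKO libraries it was 8.184 to 8.656, and in KOWT 8.179 to 9.191. Of 6 meningeal markers 2 rose, and their summed level was 286 to 580 CPM in DKO, against 218 to 340 CPM in KOWT. Of 7 immature neuron markers 3 rose, and their summed level was 406 to 832 CPM in DKO, against 433 to 612 CPM in KOWT. Of 9 inhibitory neuron markers 1 rose and 2 fell, and their summed level was 847 to 1175 CPM in DKO, against 783 to 1000 CPM in KOWT. Of 8 astrocyte markers 1 rose (5304 to 6683 CPM in DKO, against 5819 to 6580 CPM in KOWT), and of 8 proliferation markers 1 fell (24.9 to 42.7 CPM in DKO, against 29.1 to 39.1 CPM in KOWT). None of these markers was at 0 in any DKO or KOWT library. Their part in the F-box results was not tested beyond a fit with the myelin mean as a covariate, in which 7 of the 14 calls remained. In bulk RNA, fewer cells of a type and less RNA per cell cannot be told apart.

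Against separate wild types, 6 members were higher and 9 lower in DKO, 27.8% of the 54, against 26.1% of all genes (13.1% higher and 13% lower). The median was 0.02, against 0.00 over all genes. This contrast also holds the loss of Sh3gl2, and it shares the DKO libraries with the one against KOWT. Fbxl2 had 40.3, 44.0 and 47.1 CPM in DKO, against 48.3, 53.8 and 59.5 CPM in WT-DKO, with no overlap (-0.30 ± 0.05, adjusted p = 0.000107). KOWT had 45.01, 48.3 and 53.9 CPM, overlapping both. Exons of Fbxl2 overlap those of Ubp1 on the opposite strand over 11.2% of their length. Fbxl20 (Scrapper), a synaptic receptor that takes the release regulator RIM1 for degradation, had 74.9, 88.8 and 101 CPM in DKO, against 74.6, 78.2 and 83.2 CPM in WT-DKO. Of the DKO libraries, 6 of 7 were above all WT-DKO libraries (0.17 ± 0.05, adjusted p = 0.00873). Fbxw7 (-0.18 ± 0.04), Fbxl14 (-0.29 ± 0.06) and Fbxo28 (-0.18 ± 0.07) were lower and Fbxw9 (0.34 ± 0.10) and Fbxw2 (0.17 ± 0.04) higher than in WT-DKO too. Of the sugar-binding receptors, Fbxo27 fell (-0.21 ± 0.07) and Fbxo6 rose (0.21 ± 0.07), with adjusted p-values of 0.0267 and 0.0228. Fbxo46 (-0.24 ± 0.09) and Fbxo9 (-0.15 ± 0.05), a receptor of the mTOR partners Tel2 and Tti1, fell, and Fbxo11 rose (0.13 ± 0.05). Fbxo42 completed the 9 that fell (-0.14 ± 0.05, adjusted p = 0.0401; named after its values were seen).

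The 5 calls that held against WT-DKO under every setting tried were those of Fbxo47, Fbxo38, Fbxl2, Fbxl20 and Fbxw2. Without the choroid-rich libraries 6 of the 15 calls remained. Fbxo6 was lost without DKO replicate 5 (0.15), Fbxo27 without DKO replicate 5 or 6 (-0.19 for each) and Fbxo9 without DKO replicate 1, 4 or 6 (-0.13 to -0.12). Fbxo11 was lost without any of 6 libraries, DKO replicates 4, 6 and 7 and WT-DKO replicates 2, 6 and 7 (0.10 to 0.13). Fbxo46 was lost without any of 10 libraries, DKO replicates 5, 6 and 7 and WT-DKO replicates 2, 3, 4, 5, 6, 8 and 10 (-0.24 to -0.18), and Fbxo28 without any of 13, DKO replicates 1, 3, 5 and 6 and all WT-DKO replicates but 7 (-0.19 to -0.12). Of 8 microglia markers 4 were lower in DKO, with summed levels of 251 to 352 CPM in DKO, against 306 to 365 CPM in WT-DKO. Of 9 inhibitory neuron markers 1 was higher and 3 were lower, with summed levels of 847 to 1175 CPM in DKO, against 921 to 1083 CPM in WT-DKO. Of 8 astrocyte markers 1 was higher and 2 were lower (5304 to 6683 CPM in DKO, against 5741 to 7089 CPM in WT-DKO), and of 8 proliferation markers 1 was lower (24.9 to 42.7 CPM in DKO, against 37.0 to 45.4 CPM in WT-DKO). At most 1 marker in each direction was called in the excitatory neuron, immature neuron, endothelial and meningeal lists. No marker was at 0 in a library of these groups, and their part in the F-box results was not tested.

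Between the older controls, Fbxo38 was the 1 member called of 54 (higher in KOWT), against 4.41% of all genes (2.33% higher and 2.09% lower). No member was lower by edgeR's quasi-likelihood test or by DESeq2. The call of Fbxo38 ended without any of 14 of the 17 libraries, all but KOWT replicate 5 and WT-DKO replicates 3 and 8, with log2 fold changes of 0.15 to 0.18 and adjusted p up to 0.109.

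In newborns, TKO were set against KOWTKO, which compares loss of Sh3gl1 with its presence in libraries low in Sh3gl2 and Sh3gl3. Of 54 members, 4 were higher and 1 lower in TKO, 9.26% of them, against 5.09% of all 15715 genes tested (2.41% higher and 2.68% lower). The median was 0.01, against 0.00 over all genes. Fbxl20, the synaptic receptor Scrapper, had the largest rise. It had 71.4, 85.2 and 93.6 CPM in TKO, against 57.0, 62.6 and 67.0 CPM in KOWTKO and 61.5, 69.5 and 74.9 CPM in WT-TKO. All 9 TKO libraries were above all KOWTKO libraries and 7 of 9 above all WT-TKO libraries. The log2 fold change was 0.41 ± 0.05 against KOWTKO (adjusted p = 2.49e-05) and 0.27 ± 0.05 against WT-TKO (adjusted p = 0.000628). Annotated exons of Fbxl20 overlap those of Gm11632 on the same strand over 5.6% of their length. Fbxl20 lies on chromosome 11 (98082556 to 98150403, mm10) near Fbxo47 (97853826 to 97884154).

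Fbxo16 had 6.78, 8.62 and 10.3 CPM in TKO, against 5.20, 6.69 and 7.84 CPM in KOWTKO, with 6 of 9 TKO libraries above all KOWTKO libraries (0.38 ± 0.10, adjusted p = 0.023). WT-TKO, at 6.83, 7.99 and 9.34 CPM, overlapped both. Fbxl15, a receptor of the ligase Smurf1 in BMP signalling, was the 1 member lower in TKO. It had 3.19, 3.87 and 5.39 CPM in TKO, against 3.56, 6.46 and 14.2 CPM in KOWTKO (-0.82 ± 0.21, adjusted p = 0.025) and 3.43, 4.19 and 6.71 CPM in WT-TKO. The KOWTKO libraries were spread widely, and the call ended without KOWTKO replicate 1 (-0.59, adjusted p = 0.0688) or 5 (-0.71, adjusted p = 0.0694). Exons of Fbxl15 overlap those of Cuedc2 on the opposite strand over 25.6% of their length, and Cuedc2 itself changed by -0.03 ± 0.05 between these groups and was not called. The call of Fbxo16 ended without KOWTKO replicate 5 (0.38, adjusted p = 0.0524) or TKO replicate 8 (0.35, adjusted p = 0.0504), and without KOWTKO replicate 5 a total of 3 members were called. Those of Fbxl20, Fbxl4 and Fbxo38 held under every setting tried. Without KOWTKO replicate 3, whose Sh3gl1 was low, all 5 of these calls stayed. A total of 7 members were called without KOWTKO replicate 7, among them all 5. Of the marker lists, at most 2 members of any were called in this comparison: 2 of 8 inhibitory neuron markers were lower (summed levels of 364 to 510 CPM in TKO, against 468 to 511 CPM in KOWTKO), 1 of 8 astrocyte markers was lower (1106 to 1309 CPM in TKO, against 1136 to 1448 CPM in KOWTKO), and 1 of 8 microglia markers (65.2 to 81.1 CPM in TKO, against 58.2 to 77.5 CPM in KOWTKO) and 1 of 6 endothelial markers (65.5 to 131 CPM in TKO, against 84.1 to 144 CPM in KOWTKO) were higher. Pvalb, Opalin and Kcnj13 were at 0 in some newborn libraries, and the part of these markers was not tested.

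Against separate newborn wild types, 10 members were higher and 3 lower in TKO, 24.1% of the 54, against 22.9% of all genes (10.8% higher and 12% lower), with a median of 0.03 against 0.00 over all genes. In KOWTKO, 10 members were higher and 6 lower than in WT-TKO, 29.6%, against 20.9% of all genes (10.5% higher and 10.5% lower), with a median of -0.01 against -0.01. The 2 comparisons share the WT-TKO libraries, so their values are given side by side. Fbxl17 had 79.5, 92.3 and 102 CPM in TKO and 89.3, 97.5 and 103 CPM in KOWTKO, against 64.7, 74.2 and 80.2 CPM in WT-TKO (0.32 ± 0.05 in TKO, adjusted p = 0.000213, and 0.41 ± 0.06 in KOWTKO, adjusted p = 3.02e-05). Of the TKO libraries 8 of 9, and of the KOWTKO libraries 8 of 8, were above all WT-TKO libraries. Fbxl17 lies on chromosome 17, 7.3 Mb from Sh3gl1. It was not called in TKO against KOWTKO but was called higher in DKO against KOWT (0.14). The part of its position was not tested. Fbxo45, a neuronal receptor that acts with the ligase Phr1 at synapses, had 108, 118 and 126 CPM in TKO and 119, 125 and 130 CPM in KOWTKO, against 86.4, 97.4 and 118 CPM in WT-TKO (0.25 ± 0.05 and 0.32 ± 0.05, adjusted p = 0.00177 and 0.000385). Fbxo11 (0.22 ± 0.05 in TKO and 0.21 ± 0.05 in KOWTKO), Fbxw11 (0.14 ± 0.04 and 0.21 ± 0.05), Fbxo7, a mitophagy adaptor mutated in familial parkinsonism (0.24 ± 0.06 and 0.23 ± 0.06), and Fbxl14 (0.33 ± 0.11 and 0.38 ± 0.12) were higher in both as well.

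**Figure D3:**
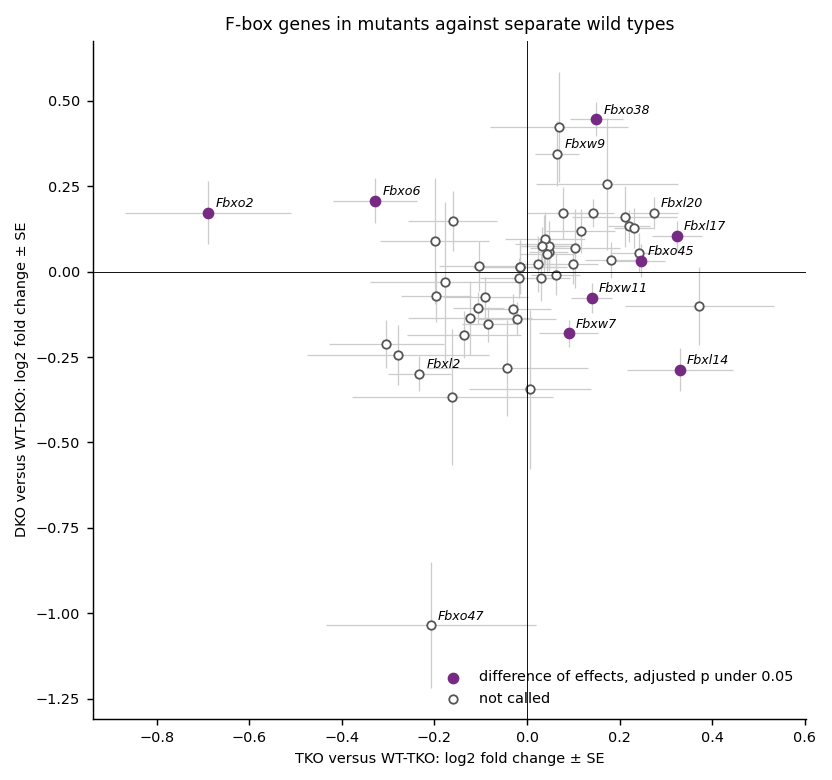
Log2 fold changes with SE of the 54 F-box genes in DKO versus WT-DKO (vertical) and TKO versus WT-TKO (horizontal), comparisons that share no library. Filled points mark the 8 genes whose effects differed between the mutants, such as Fbxo2 (0.17 and -0.69) and Fbxl14 (-0.29 and 0.33).

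The 3 members lower in TKO than in WT-TKO were Fbxo2, Fbxo6 and Fbxl2. Fbxo2 and Fbxo6, receptors of glycoproteins, lie on chromosome 4 with Fbxo44 between them, which was not called (-0.09 ± 0.09). Fbxo2 had 3.91, 5.81 and 6.09 CPM in TKO, against 4.85, 7.94 and 17.5 CPM in WT-TKO, and all 9 TKO libraries were below the WT-TKO median (-0.69 ± 0.18, adjusted p = 0.00701). WT-TKO replicate 8, the library with myelin markers, held the highest value, 17.5 CPM, and without it the change was -0.47. Fbxo6 had 6.56, 7.62 and 8.73 CPM in TKO, against 7.29, 9.29 and 11.8 CPM in WT-TKO (-0.33 ± 0.09, adjusted p = 0.00993). Fbxl2 had 21.1, 25.1 and 28.6 CPM in TKO and 20.03, 25.5 and 28.2 CPM in KOWTKO, against 26.8, 28.8 and 31.9 CPM in WT-TKO (-0.23 ± 0.07 and -0.22 ± 0.07). In KOWTKO, Fbxo27 (-0.47 ± 0.13, adjusted p = 0.0118), Fbxw17 (-0.30 ± 0.09, adjusted p = 0.0172), Fbxo16 (-0.28 ± 0.10, adjusted p = 0.0482) and Fbxo6 (-0.26 ± 0.09, adjusted p = 0.0468) were lower than in WT-TKO, and Fbxl15 was higher (0.66 ± 0.22, adjusted p = 0.0341).

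Calls of Fbxl14 and Fbxw2 in TKO, and of Fbxl14, Fbxl15, Fbxl2, Fbxo16 and Fbxo6 in KOWTKO, ended when 1 library was left out. In TKO, Fbxl14 was lost without TKO replicate 1, 2, 3, 4 or 8 or WT-TKO replicates 1 to 6 (0.27 to 0.33), and Fbxw2 (0.14 ± 0.05) without TKO replicate 8 or WT-TKO replicate 2, 3 or 4 (0.13 for each). In KOWTKO, Fbxl14 was lost without KOWTKO replicate 1 or 4 (0.32 for each), and Fbxl15 without KOWTKO replicate 1 (0.42) or 5 (0.55) or WT-TKO replicates 3 to 6 (0.62 to 0.65). Fbxl2 was lost in KOWTKO without KOWTKO replicate 1 or 4 or WT-TKO replicate 1, 5 or 6 (-0.21 to -0.17). Fbxo16 was lost in KOWTKO without any of 12 of the 16 libraries, KOWTKO replicates 1 to 7 and WT-TKO replicates 1 to 4 and 8 (-0.29 to -0.23). Fbxo6 was lost without any of 12, KOWTKO replicates 1 to 6 and 8 and WT-TKO replicates 1, 3, 5, 6 and 8 (-0.28 to -0.20). Markers of several cell types moved with these groups. In TKO 6 of 6 meningeal markers fell (summed levels of 48.4 to 126 CPM in TKO and 60.8 to 138 CPM in KOWTKO, against 77.4 to 353 CPM in WT-TKO), and in KOWTKO 1 of 6. Of 8 microglia markers 6 fell in TKO and 6 in KOWTKO (65.2 to 81.1 CPM in TKO and 58.2 to 77.5 CPM in KOWTKO, against 73.2 to 136 CPM in WT-TKO). Of 7 choroid plexus markers tested, 3 fell in TKO and 5 in KOWTKO (18.7 to 168 CPM over 8 markers in TKO and 14.2 to 35.6 CPM in KOWTKO, against 37.8 to 1136 CPM in WT-TKO). Of 10 myelin markers tested, 3 fell in TKO and 5 in KOWTKO (69.4 to 119 CPM over 12 markers in TKO and 72.9 to 89.2 CPM in KOWTKO, against 77.5 to 1009 CPM in WT-TKO). Of 8 astrocyte markers 5 fell in TKO, and in KOWTKO 1 was higher and 2 were lower (1106 to 1309 CPM in TKO and 1136 to 1448 CPM in KOWTKO, against 1206 to 1793 CPM in WT-TKO). Of 8 inhibitory neuron markers tested, 4 fell in TKO, and in KOWTKO 1 was higher and 2 were lower (364 to 510 CPM over 9 markers in TKO and 468 to 511 CPM in KOWTKO, against 453 to 580 CPM in WT-TKO). Of 7 immature neuron markers, 2 were higher in TKO and 4 in KOWTKO (5277 to 6228 CPM in TKO and 5958 to 6524 CPM in KOWTKO, against 4766 to 5734 CPM in WT-TKO). Of 10 excitatory neuron markers, 2 were higher and 1 lower in TKO and 2 higher in KOWTKO. Of 8 proliferation markers 1 was higher in each, and of 6 endothelial markers 1 was higher in TKO. Their part in the F-box results was not tested.

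Whether effects differed between the mutants was tested by subtracting the effects in a fit to all 49 libraries, in which genotype and age differ together and cannot be told apart. Against littermates the effects differed for 4 members, 7.41% of the 54, against 8.9% of all 16805 genes (4.12% with a positive and 4.78% with a negative difference). The effect in DKO minus that in TKO was 0.40 ± 0.11 for Fbxw9 (adjusted p = 0.0196), 0.22 ± 0.07 for Fbxl17 (adjusted p = 0.0441), -0.30 ± 0.07 for Fbxl20 (adjusted p = 0.00658) and -0.35 ± 0.10 for Fbxo25 (adjusted p = 0.0209). Fbxo25, for example, fell in DKO, while it was 74.5 ± 13.4 CPM in TKO and 65.0 ± 3.44 CPM in KOWTKO (SD), a difference that was not called. Leaving out the Sh3gl3-low libraries, 1 of the 4 remained, that of Fbxl20, and without the choroid-rich libraries 1 remained, that of Fbxo25. The call of Fbxw9 ended without DKO replicate 5 (0.33, adjusted p = 0.0509). That of Fbxl17 ended without any of 17 of the 31 libraries, DKO replicates 5 to 7, KOWT replicates 1, 2 and 5 to 7, TKO replicates 5 to 8 and KOWTKO replicates 1, 3, 5, 7 and 8 (0.18 to 0.23, adjusted p up to 0.111). The number of members called was 2 without DKO replicate 5, 9 without DKO replicate 4, and 7 without KOWTKO replicate 7, TKO replicate 2 or TKO replicate 3. Fbxl4 (-0.12 ± 0.11) and Fbxo38 (0.05 ± 0.08), which rose in both mutants against littermates, were not among the 4 called.

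Against separate wild types the effects differed for 8 members, 14.8% of the 54, against 10.1% of all genes (5.55% with a positive and 4.55% with a negative difference). The effect in DKO minus that in TKO was 0.83 ± 0.20 for Fbxo2 (adjusted p = 0.0053), 0.53 ± 0.11 for Fbxo6 (adjusted p = 0.00144) and 0.29 ± 0.08 for Fbxo38 (adjusted p = 0.0104). It was -0.63 ± 0.14 for Fbxl14 (adjusted p = 0.00174), -0.28 ± 0.07 for Fbxw7 (adjusted p = 0.0104), -0.23 ± 0.07 for Fbxl17 (adjusted p = 0.0264), -0.22 ± 0.06 for Fbxw11 (adjusted p = 0.0151) and -0.22 ± 0.07 for Fbxo45 (adjusted p = 0.0344). Fbxo6 was higher in DKO and lower in TKO than in the wild types of its age, and Fbxl14 was lower in DKO and higher in TKO. Without WT-TKO replicate 8 the difference of Fbxo2 was 0.64. Without the choroid-rich libraries 5 of the 8 remained, those of Fbxl14, Fbxo2, Fbxo38, Fbxo6 and Fbxw11. The call of Fbxl17 ended without WT-TKO replicate 1 (-0.20, adjusted p = 0.0527), and that of Fbxo45 without any of 9 libraries, DKO replicates 2 and 3, WT-DKO replicate 4, TKO replicates 1, 3 and 8 and WT-TKO replicates 1, 3 and 4 (-0.21 to -0.19).

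More members were called between ages than between groups of 1 age, and the same held over all genes. Between older and newborn wild types 46 of 54 members differed, 85.2%, with 23 higher and 23 lower in WT-DKO, against 81.1% of all genes (39.5% higher and 41.5% lower). The median was 0.04, against -0.03 over all genes. The median absolute log2 fold change was 0.543 for the members, against 0.65 over all genes. The higher and lower members were spread over the classes, with 8 and 6 of 15 Fbxl genes and 14 and 13 of 31 Fbxo genes, while 1 of 8 Fbxw genes was higher and 4 were lower. Age cannot be told apart from anything else that differs between these 2 sets of libraries.

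**Figure D4:**
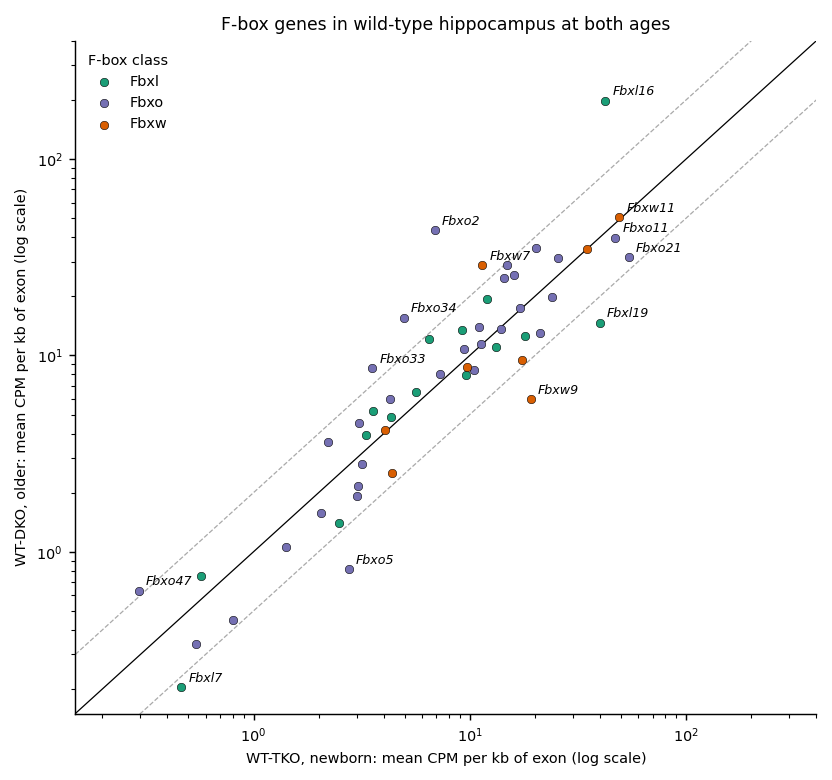
Mean CPM per kb of exon of the 54 F-box genes in older WT-DKO (vertical) and newborn WT-TKO hippocampus (horizontal), both on log scales and coloured by class, with the line of equality and dashed lines at a change by a factor of 2 either way. Fbxl16 (198 and 42.1 CPM per kb) and Fbxo2 (43.5 and 6.87) lie far above the line and Fbxw9 (5.99 and 19.1) and Fbxo5 (0.814 and 2.75) far below it.

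Fbxo2, Fbxl16 and Fbxw7 were among the members higher in older hippocampus. Fbxo2, the neuron-enriched glycoprotein receptor, had 44.0, 56.7 and 65.0 CPM in WT-DKO, against 4.85, 7.94 and 17.5 CPM in WT-TKO (2.70 ± 0.15, adjusted p = 2.24e-22). Without WT-TKO replicate 8 the change was 2.90. The related Fbxo27 (0.71 ± 0.10) and Fbxo6 (0.49 ± 0.08) were also higher, while Fbxo17 was lower (-0.83 ± 0.15). Fbxl16 had 599.9, 710.1 and 836 CPM in WT-DKO, against 132, 142 and 234 CPM in WT-TKO (2.23 ± 0.09, adjusted p = 1.09e-28). Fbxw7 had 185, 204 and 215 CPM in WT-DKO, against 71.3, 78.6 and 91.8 CPM in WT-TKO (1.34 ± 0.05, adjusted p = 1.01e-28). The groups did not overlap for Fbxo2, Fbxl16 or Fbxw7. Fbxo34 (1.66 ± 0.10), Fbxo47 (1.13 ± 0.19), Fbxl2 (0.90 ± 0.06), Fbxo9 (0.81 ± 0.05), Fbxo41, a neuronal centrosome protein (0.78 ± 0.06), and Fbxo31, a receptor of cyclin D1 (0.69 ± 0.07), were higher too. So were Fbxl21, a receptor of cryptochromes (0.39 ± 0.12), and the iron sensor Fbxl5 (0.54 ± 0.05). Fbxo47 met the 1 CPM minimum through KOWT and WT-DKO alone. Its higher level in WT-DKO is therefore tied to how members were chosen and is not counted as support. Of the synaptic receptors, Fbxl20 was higher (0.21 ± 0.05) and Fbxo45 lower (-0.27 ± 0.05).

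Fbxo5, Fbxw9 and Fbxl19 were among the members lower in older hippocampus. Fbxo5 (Emi1), an inhibitor of the anaphase-promoting complex, had 0.781, 1.49 and 2.62 CPM in WT-DKO, against 4.02, 5.64 and 6.87 CPM in WT-TKO (-1.75 ± 0.17, adjusted p = 5.01e-13). Fbxw9 had 16.3, 19.9 and 28.3 CPM in WT-DKO, against 57.2, 65.0 and 71.1 CPM in WT-TKO (-1.68 ± 0.07, adjusted p = 1.31e-26). Fbxl19, which binds CpG islands through a CXXC domain, had 57.1, 67.3 and 72.7 CPM in WT-DKO, against 168, 179 and 202 CPM in WT-TKO (-1.45 ± 0.07, adjusted p = 1.02e-25). All 10 WT-DKO libraries were below all WT-TKO libraries for each of the 3 genes, and for Fbxl7, a receptor of Aurora A (-1.20 ± 0.15). Fbxw17 (-0.79 ± 0.08), Fbxo46 (-0.51 ± 0.15), Fbxo16 (-0.37 ± 0.10), Fbxo7 (-0.30 ± 0.06), Fbxl17 (-0.25 ± 0.05), Fbxo11 (-0.24 ± 0.04) and Fbxw2 (-0.15 ± 0.04) were lower as well. Fbxw11 (0.04 ± 0.04) and Fbxo18 (0.03 ± 0.05) were not called.

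The same fit covered markers of cell types, in a contrast in which 81.1% of all genes were called. Of 8 proliferation markers 8 were lower, with summed levels of 37.0 to 45.4 CPM in WT-DKO, against 196 to 290 CPM in WT-TKO, and of 7 immature neuron markers 7 were lower (453 to 706 CPM in WT-DKO, against 4766 to 5734 CPM in WT-TKO). Of 12 myelin markers 12 were higher (7159 to 18400 CPM in WT-DKO, against 77.5 to 1009 CPM in WT-TKO), as were 8 of 8 astrocyte markers (5741 to 7089 CPM in WT-DKO, against 1206 to 1793 CPM in WT-TKO). Of 10 excitatory neuron markers 6 were higher and 4 lower (9847 to 11970 CPM in WT-DKO, against 2230 to 3500 CPM in WT-TKO). Of 9 inhibitory neuron markers 7 were higher and 2 lower, and of 6 endothelial markers 4 were higher and 1 lower. Of 8 microglia markers 7 were higher, as were 3 of 8 choroid plexus and 3 of 6 meningeal markers. Opalin and Pvalb were at 0 in some WT-TKO libraries. Their part in the F-box differences was not tested.

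**Figure D5:**
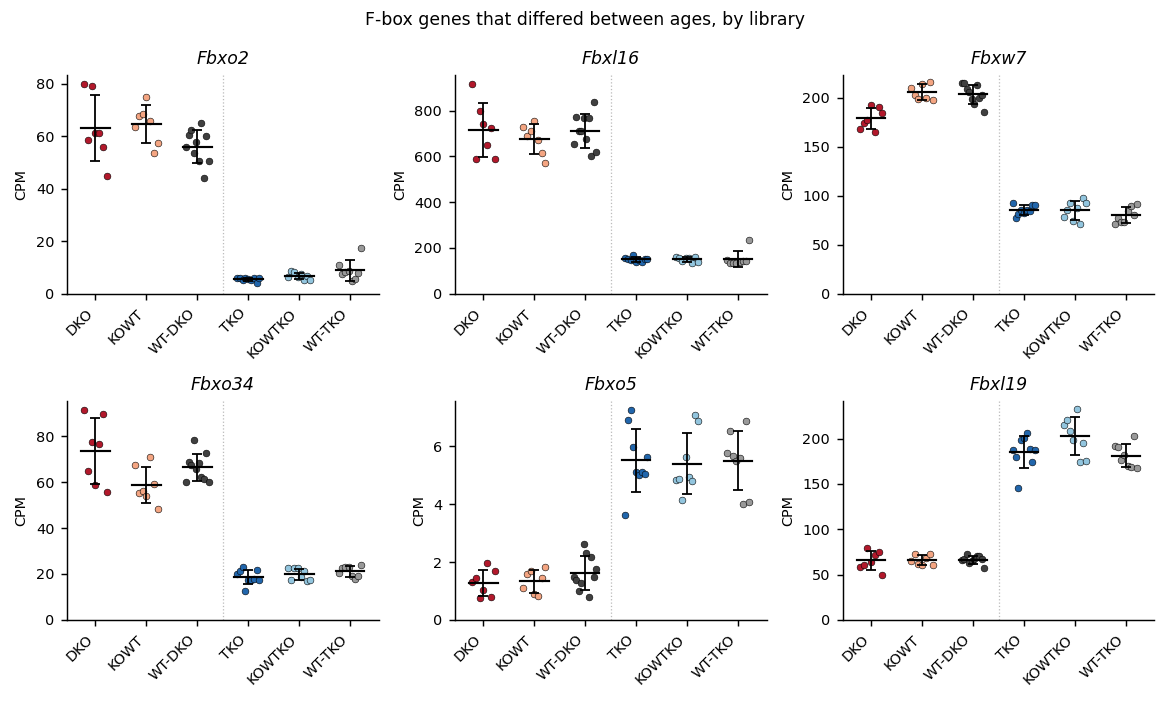
CPM of Fbxo2, Fbxl16, Fbxw7, Fbxo34, Fbxo5 and Fbxl19 in each library, with group means and SD and the older groups left of the dotted line. The libraries of WT-DKO and WT-TKO do not overlap for any of the 6 genes, with WT-TKO replicate 8 the highest of its group for Fbxo2 (17.5 CPM) and Fbxl16 (234 CPM).

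The rest of the SCF pathway was read from lists of other genes. In DKO against KOWT, 2 of 9 SCF core genes rose and the other 7 were not called. Cul1, the scaffold, had 159, 174 and 197 CPM in DKO, against 151, 155 and 169 CPM in KOWT (0.15 ± 0.05, adjusted p = 0.0238), and Ube2r2, a ubiquitin-conjugating enzyme, rose by 0.16 ± 0.04. Skp1a, the adaptor, was not called (0.06 ± 0.05). Of 6 F-box genes outside the members (Btrc, Skp2, Ccnf, Kdm2a, Kdm2b and Fbxo32) 2 fell. Btrc (beta-TrCP1, a relative of Fbxw11) fell by 0.11 on the log2 scale (-0.11 ± 0.04), as did the histone demethylase Kdm2a (-0.20 ± 0.05). Skp2 was not called (-0.09 ± 0.12). Of 20 neddylation and COP9 signalosome genes, which switch cullins on and off, Cops5, the deneddylase subunit, rose (0.17 ± 0.06), and Senp8 (-0.74 ± 0.16), Dcun1d3 (-0.40 ± 0.10) and Dcun1d2 (-0.27 ± 0.05) fell. Senp8, which processes Nedd8, had 3.01, 5.62 and 9.79 CPM in DKO, against 9.17, 9.80 and 11.6 CPM in KOWT. Of 7 other cullins Cul7 rose (0.24 ± 0.07) and Cul9 fell (-0.45 ± 0.08). In all, 10 of these 42 genes were called, near the 20.8% of all genes.

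In DKO against WT-DKO, 2 of 9 core genes rose, Cul1 (0.13 ± 0.04) among them, and 1 of 6 other F-box genes fell, Btrc. Btrc had 115, 120 and 127 CPM in DKO, against 134, 146 and 151 CPM in WT-DKO (-0.26 ± 0.03), with KOWT at 124, 132 and 138 CPM and also lower than WT-DKO (-0.15 ± 0.03). Of the 20 neddylation genes 2 rose and 3 fell, and 2 of 7 other cullins fell, beside 26.1% of all genes called. In KOWT against WT-DKO, 1 neddylation gene was higher and 1 lower, and Btrc was the 1 other gene called, beside 4.41% of all genes. In TKO against KOWTKO, 2 of the 42 genes were called, Kdm2a (0.26 ± 0.08) and Fbxo32 (0.73 ± 0.10), both higher, beside 5.09% of all genes. Kdm2a thus fell in DKO and rose in TKO, and the difference of the effects was -0.46 ± 0.10. In TKO against WT-TKO, 1 core gene (Skp1a, 0.22 ± 0.07), 1 other F-box gene, 1 neddylation gene and 2 other cullins were higher and 1 other cullin was lower, beside 22.9% of all genes. In KOWTKO against WT-TKO, 2 core genes (Skp1a, 0.22 ± 0.07, and Cul1, 0.19 ± 0.05), 1 neddylation gene and 1 other cullin were higher, and 3 other F-box genes (Skp2, -0.40 ± 0.10, among them), 2 neddylation genes and 1 other cullin were lower, beside 20.9% of all genes. With age, 1 core gene was higher and 5 were lower in WT-DKO, 3 other F-box genes were higher (Btrc, 0.47 ± 0.04) and 3 lower (Skp2, -1.25 ± 0.10), 6 neddylation genes were higher and 9 lower, and 3 other cullins were higher and 2 lower, beside 81.1% of all genes.

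The authors' deposited tables of 4 comparisons listed all 54 members, with adjusted p under 0.05 for 18 in DKO over KOWT, 17 in DKO over wild types, 6 in TKO over KOWTKO and 14 in TKO over wild types. The share of all genes under this threshold in those tables was not computed, so the counts are not read as a result about the members. In the authors' deposited table, Fbxl20 had a log2 fold change of 0.40 in TKO over KOWTKO and Fbxo47 one of -0.96 in DKO over KOWT. The tables were deposited with the counts used here and are not an independent check.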

How the data were processed

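Per the submitters' processing notes, reads were handled with CASAVA 1.8.2, STAR 2.3.0e and DESeq2 on mm10; how reads were counted, and on which annotation, is not given in the sources used here. Per the labels' protocols, libraries of polyadenylated RNA were made with a kit that does not mark strand, from RNA purified with either of 2 column kits that are not tied to samples. The authors deposited a table of raw read counts per gene for the 49 libraries and tables of log2 fold changes with p-values for 4 comparisons. Each count column was matched to its sample by name. The 5 lines of the count table that name no gene were left out of library sizes; reads on no feature were 8.89% to 17.5% and ambiguous reads 1.57% to 1.92%. Every pair of libraries within a group differed by more than sampling noise (lowest chi-square per degree of freedom 3.35). The highest values, 60.2 to 85.6, were those of KOWTKO replicate 7 with the other KOWTKO libraries.

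Counts were tested over all genes with edgeR 4.0.16 (quasi-likelihood, robust, TMM, filterByExpr) in R 4.3.3, with Benjamini-Hochberg adjustment and a threshold of 0.05. The 3 groups of an age shared a fit, and all 49 libraries shared one for age and for differences of effects. Fits were tested on simulated data. SE is the log2 fold change divided by the square root of F. CPM per kb used GENCODE M21 exon lengths, matched by identifier for all 54 members. Alternatives were DESeq2 1.42.0, RLE scaling, no filter, a replicate block, 2 groups per fit, a myelin covariate, and leaving out single libraries, libraries under 20 CPM of Sh3gl3, and libraries over 3 scaled MADs in choroid plexus markers.

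The members and lists were chosen with earlier results of these data known. Members named were those called against littermates, the 4 highest and 4 lowest called in each other comparison, and 16 with well-known roles; 1 member is not reported here by name. From the pathway lists, genes called against littermates and Btrc, Skp2, Cul1 and Skp1a were named.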

Additional observations from a re-analysis of the deposited data

Results flagged for a closer look

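Single samples far from the rest of their group were found in 16 of 210 groups of values, and chance alone gives about 1 in 20. Fbxl16 was at 234 CPM in WT-TKO replicate 8, with the next library at 146 CPM, and Fbxo9 at 69.5 CPM in the same library, with the next at 63.7 CPM. That library also held the myelin markers. In TKO replicate 4, Fbxl5 was at 115.9 CPM (next 95.3 CPM) and Fbxl21 at 1.32 CPM (next 2.47 CPM). In KOWTKO replicate 7, Fbxl7 was at 4.05 CPM (next 3.27 CPM) and Fbxo18 at 65.4 CPM (next 80.2 CPM). In WT-DKO replicate 7, Fbxo45 was at 72.4 CPM (next 80.2 CPM) and Fbxw9 at 28.3 CPM (next 21.96 CPM). Fbxl14 was at 18.7 CPM in KOWT replicate 7 (next 22.9 CPM), and Fbxl4 at 14.01 CPM in KOWTKO replicate 8 (next 11.6 CPM). Fbxl15 was at 6.71 CPM in WT-TKO replicate 1 (next 4.82 CPM), and Fbxo2 at 3.91 CPM in TKO replicate 8 (next 5.03 CPM). Fbxo17 was at 1.89 CPM in WT-DKO replicate 9 (next 1.26 CPM) and at 2.63 CPM in WT-TKO replicate 7 (next 2.10 CPM), both rich in choroid plexus markers. Fbxo6 was at 18.9 CPM in DKO replicate 5 (next 15.4 CPM), and Fbxo7 at 62.3 CPM in WT-DKO replicate 3 (next 53.1 CPM).

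Effects that differed between the mutants are given as the effect in DKO minus that in TKO, on the log2 scale. Against littermates they were 0.22 for Fbxl17, -0.30 for Fbxl20, -0.35 for Fbxo25 and 0.40 for Fbxw9. Against separate wild types they were -0.63 for Fbxl14, -0.23 for Fbxl17, 0.83 for Fbxo2, 0.29 for Fbxo38, -0.22 for Fbxo45, 0.53 for Fbxo6, -0.22 for Fbxw11 and -0.28 for Fbxw7.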

How the results depend on the processing

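Of 241 counts of called members under an alternative, 207 stayed within 1.5 times the reported count. Of 8435 values of the 35 named members, 8079 kept their side of the threshold, 268 no longer passed it and 88 newly did. No value that passed it in the reported or the alternative fit changed sign. Signs of values that passed in neither fit were not compared, and such values count among the 8079. In DKO against KOWT, 9 members were called with the myelin covariate, 6 with 2 groups per fit and 3 once the Sh3gl3-low libraries were left out. Against WT-DKO, 7 were called in DKO without the choroid-rich libraries. In KOWT against WT-DKO, 2 were called with 2 groups per fit and 0 with the myelin covariate, with no filter, with the replicate block and without the libraries low in Sh3gl3, against 1 by DESeq2. For the difference of effects against littermates 1 was called without the libraries low in Sh3gl3 and 1 without the choroid-rich ones, and against wild types 5 without the choroid-rich ones. Fits with fewer libraries have fewer samples, and otherwise the cause was not tested. The share of all genes called under each alternative is not given here, so these counts are not read as particular to the members.

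Leaving out single libraries gave 9 to 16 members called in DKO against KOWT, 10 to 17 in DKO against WT-DKO, 0 to 1 in KOWT against WT-DKO, 3 to 7 in TKO against KOWTKO, 11 to 15 in TKO against WT-TKO, 11 to 19 in KOWTKO against WT-TKO and 44 to 47 with age. It gave 2 to 9 and 6 to 10 for the differences of effects against littermates and wild types. With the replicate number as a block, 10, 10, 0, 4, 13, 13 and 47 members were called in the same order, and 3 and 5 for the differences. The block kept 9 of the 14 calls in DKO against KOWT. The numbers were not taken as pairing, since not every same-numbered pair correlated over 0.1: the correlations ran from -0.006 to 0.521 in DKO and KOWT, where 3 of 7 samples correlated best with their own number, and from -0.345 to 0.26 in the other pairs of groups. Precision is limited for members with few reads, down to 3 reads of Fbxo48 in a library.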
